A study of Oryctolagus cuniculus with 6 samples.

Results

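Among the transcripts that differed between rabbit ear scars treated with exosomes and scars treated with saline are 5 genes of striated muscle: MYH1 and MYH7, which encode myosin heavy chains, TNNT2, which encodes troponin T, ACTC1, which encodes an alpha actin, and ALPK2, which encodes a kinase. They were chosen by symbol from a table of 421 mRNA transcripts, and each symbol matched 1 transcript, so the set is 5 of 421. Hypertrophic scars of 6 female New Zealand White rabbits were profiled by RNA sequencing at day 21 after full-thickness wounding of the ear, with 6 wounds on each ear. In 3 rabbits the wounds received ADSC-Exos, at a dose of 100 µg in a volume of 2 ml, and in 3 control rabbits they received saline. ADSC-Exos are exosomes, the small vesicles that cells release, made by stem cells of fat tissue. Application lasted 3 days by the series text and 21 days by the sample labels. Allocation to the arms was random and every rabbit gave 1 library, so the replicates are animals. The sources used here do not say how the wounds of a rabbit were pooled.

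Striated muscle, of the skeleton and the heart, contracts through sarcomeres, in which thick filaments of myosin pull on thin filaments of actin. Myosin heavy chains are the motors and come in fast and slow forms that differ between fibre types. Troponin T ties the calcium-sensing troponin complex to the thin filament, and alpha actins are the filament's building blocks. The cardiac forms of troponin T and alpha actin are also made by skeletal muscle during development. In a bulk tissue sample, fewer cells of a type and less RNA per cell cannot be told apart.

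Values are log2(normalized reads + 1), where normalized reads are reads divided by a library's size factor, and each difference is ADSC-Exos minus control on that scale, which understates the change of low transcripts. The mRNA table holds only transcripts that the authors had selected, with log2 fold changes beyond 1 in either direction and p-values below 0.05, so all 421 differ by construction. The listed mRNAs together held 86844 to 224554 reads in the ADSC-Exos rabbits and 100758 to 155547 in the controls. The total depth of each library is unknown from these tables. Transcript lengths are not in the tables, so levels are compared between rabbits for one gene and not between genes.

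The 5 genes did not share a direction or a pattern over the rabbits. In the authors' deposited table MYH1 and MYH7 fell and TNNT2 rose at an FDR (the p-value adjusted for the number of transcripts tested) under 0.05, which is 3 of 5, while 11.6% of all listed mRNAs passed that threshold. By direction, 6.41% of listed mRNAs were called lower and 5.23% higher. ACTC1 and ALPK2 had lower means in the ADSC-Exos arm and did not pass. Lower means were thus found for 4 of the 5, against 42.5% of the listed mRNAs, the other 57.5% having higher means. The arms did not overlap for 4 of the 5, against 53.7% of the listed mRNAs, a share that the selection had already raised. The genes were chosen with earlier results of these data known, so none of these shares is a test.

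**Figure D1:**
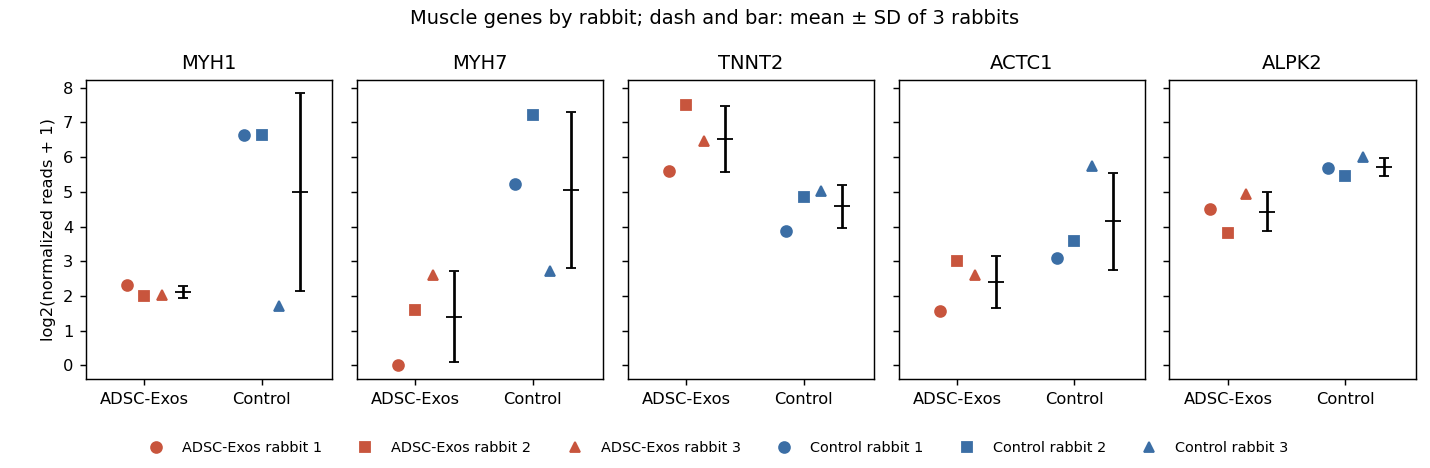
Log2(normalized reads + 1) of the 5 muscle genes in each of the 6 rabbits, 1 panel per gene, with ADSC-Exos rabbits in red at the left and control rabbits in blue at the right; the dash and bar give the mean and SD of 3 rabbits. MYH1 and MYH7 are high in control rabbits 1 and 2 and low in control rabbit 3, TNNT2 is higher in all 3 ADSC-Exos rabbits, and ALPK2 is lower in all 3.

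The thick filament was represented by the 2 myosin heavy chains. MYH1, in the files the transcript ENSOCUT00000022103 of gene ENSOCUG00000026636, had 4, 3 and 3 reads in ADSC-Exos rabbits 1 to 3, against 116, 99 and 2 reads in control rabbits 1 to 3. Control rabbits 1 and 2 were far above the other 4 rabbits, and control rabbit 3 was the lowest of all 6, so the arms overlapped. The log2 values averaged 2.12 ± 0.17 in ADSC-Exos scars and 4.99 ± 2.85 in control scars (SD, n = 3 each). The difference was -2.87 (SE 1.28) by limma, and the authors' deposited table gave it an FDR of 0.0242. Without control rabbit 3 it was -4.52.

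The identity of this transcript is uncertain between 2 fast myosins. The symbol in the authors' table is MYH1, the fast myosin of type IIx fibres, but the description beside it reads myosin-4, the name of the product of MYH4, the fast myosin of type IIb fibres. RefSeq's rabbit gene table (assembly mOryCun1.1), in which all 5 symbols were found, also carries MYH4 as a synonym of its MYH1 entry, and lists MYH13 and MYH3 among the nearest genes on that chromosome. The skeletal myosin genes are similar in sequence, so the authors' counting may not have kept their reads apart.

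MYH7 (ENSOCUT00000024189, ENSOCUG00000011037) is the slow myosin of type I fibres and of the heart's ventricles. It had 0, 2 and 5 reads in ADSC-Exos rabbits 1 to 3, against 43, 148 and 5 reads in control rabbits 1 to 3. Its high rabbits were again control rabbits 1 and 2. Control rabbit 3 and ADSC-Exos rabbit 3 tied at 5 reads, and only the size factors separated them, by 0.12 on the log2 scale. The log2 values averaged 1.40 ± 1.32 in ADSC-Exos scars and 5.06 ± 2.25 in control scars (SD, n = 3 each). The difference of -3.65 (SE 1.20) was exceeded in size by 2.85% of the listed mRNAs, and the authors' deposited table gave it an FDR of 0.0347. RefSeq lists MYH6, a close relative made in the heart's atria, as its immediate neighbour.

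Control rabbits 1 and 2 were apart in the slow myosin and nearly level in the fast one. MYH7 stood at 148 normalized reads in control rabbit 2, which was 4.07 times its level in control rabbit 1, whereas MYH1 was at 99.0 normalized reads in control rabbit 2 and 98.0 in control rabbit 1. Control rabbit 2 over control rabbit 1 was also 3.04 for MYL2, the regulatory light chain that goes with slow myosin. The ratio was 3.18 for XIRP2, 2.14 for NRAP and 2.07 for TNNT2, which are not genes of slow fibres alone. It was 1.72 for PDK4, 1.45 for ACTC1, 0.85 for ALPK2, 0.62 for XIRP1, 0.52 for SLN and 0 for ANKRD1. The muscle genes thus did not all stand higher in control rabbit 2. These ratios compare single animals and have no replicate check.

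The 2 thin-filament genes went in opposite directions. TNNT2 (ENSOCUT00000022169, ENSOCUG00000015634), cardiac troponin T, had 48, 178 and 86 reads in ADSC-Exos rabbits 1 to 3, against 16, 28 and 28 reads in control rabbits 1 to 3. Every ADSC-Exos rabbit was above every control rabbit, with ADSC-Exos rabbit 2 the highest and a gap of 0.59 on the log2 scale between the nearest rabbits of the arms. Its log2 values averaged 6.53 ± 0.95 in ADSC-Exos scars and 4.58 ± 0.63 in control scars (SD, n = 3 each). The FDR in the authors' deposited table was 0.0464, close to the threshold, for a difference of 1.95 (SE 0.63) by limma.

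ACTC1 (ENSOCUT00000007566, ENSOCUG00000004074), cardiac alpha actin, had 2, 7 and 5 reads in ADSC-Exos rabbits 1 to 3, against 9, 11 and 47 reads in control rabbits 1 to 3. The only rabbit with more than 11 reads was control rabbit 3, the one in which both myosins were lowest among the controls. Without it the difference of -1.75 (SE 0.86) became -0.94. The arms did not overlap, but the nearest rabbits lay 0.09 apart on the log2 scale. The log2 values averaged 2.40 ± 0.74 in ADSC-Exos scars and 4.15 ± 1.41 in control scars (SD, n = 3 each), and the authors' deposited table gave an FDR of 0.416. The coding sequences of the alpha actins are nearly alike, so some of these reads may come from a related actin gene.

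ALPK2 (ENSOCUT00000012325, ENSOCUG00000012324), an alpha-type protein kinase known from the developing zebrafish heart, differs in kind from the other 4. It is not a structural protein of the sarcomere, and it alone of the 5 has no myofibril term in the deposited annotation. It had 22, 13 and 29 reads in ADSC-Exos rabbits 1 to 3, against 60, 43 and 56 reads in control rabbits 1 to 3. All 3 ADSC-Exos rabbits were below all 3 control rabbits, with little spread within either arm. The log2 values averaged 4.42 ± 0.56 in ADSC-Exos scars and 5.72 ± 0.27 in control scars (SD, n = 3 each), a difference of -1.29 (SE 0.50) with an FDR of 0.138 in the authors' deposited table.

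The genes differed in how far the rabbits of one arm lay apart. The within-arm SD was 2.02 for MYH1 and 1.84 for MYH7, against a median of 0.86 over the listed mRNAs, and 7.84% and 9.26% of the listed mRNAs had a larger one. For ACTC1 it was 1.13 and for TNNT2 0.80. ALPK2 had 0.44, and 89.3% of the listed mRNAs had a larger within-arm SD.

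**Figure D2:**
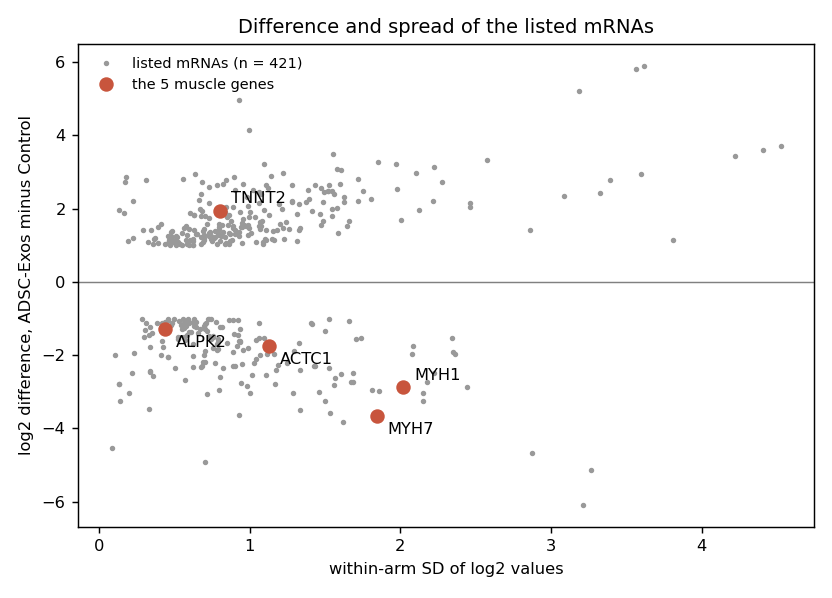
Log2 difference (ADSC-Exos minus control, vertical axis) against the within-arm SD of the log2 values (horizontal axis) for the 421 listed mRNAs in grey, with the 5 muscle genes in red. The empty band around 0 is the authors' selection; MYH1 and MYH7 combine large differences with within-arm SDs of 2.02 and 1.84, and ALPK2 has a small difference and an SD of 0.44.

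A limma fit over the whole mRNA table called 0 of the 421 mRNAs (0%) at an adjusted p of 0.05, with Benjamini-Hochberg adjustment over 17743 transcripts, the number that the authors' FDR values imply. At an unadjusted p under 0.05 it had 193, or 45.8% of the listed mRNAs, among them 3 of the 5 genes. Those were MYH7, TNNT2 and ALPK2, while MYH1 and ACTC1 missed it. The passes changed with the rabbit left out, and each such fit also had 1 rabbit fewer to test with. Without control rabbit 1 none of the 5 genes was below that p, without control rabbit 2 TNNT2 alone was, and without control rabbit 3 MYH1, MYH7 and TNNT2 were. Without ADSC-Exos rabbit 2 MYH7 alone was below it, and without ADSC-Exos rabbit 1 TNNT2 and ALPK2 were. Leaving out ADSC-Exos rabbit 3 kept the same 3 genes as the full fit. On leaving out control rabbit 1, the differences were still -3.57 for MYH7, 1.59 for TNNT2 and -1.30 for ALPK2. Each of the 5 genes had a limma adjusted p of 1. These p-values rest on the rabbits by which the table was selected. In a two-sided exact permutation test over the 6 rabbits, MYH1 had p = 0.4 and each of the other 4 genes had p = 0.1, the smallest value that 3 rabbits against 3 allow.

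**Figure D3:**
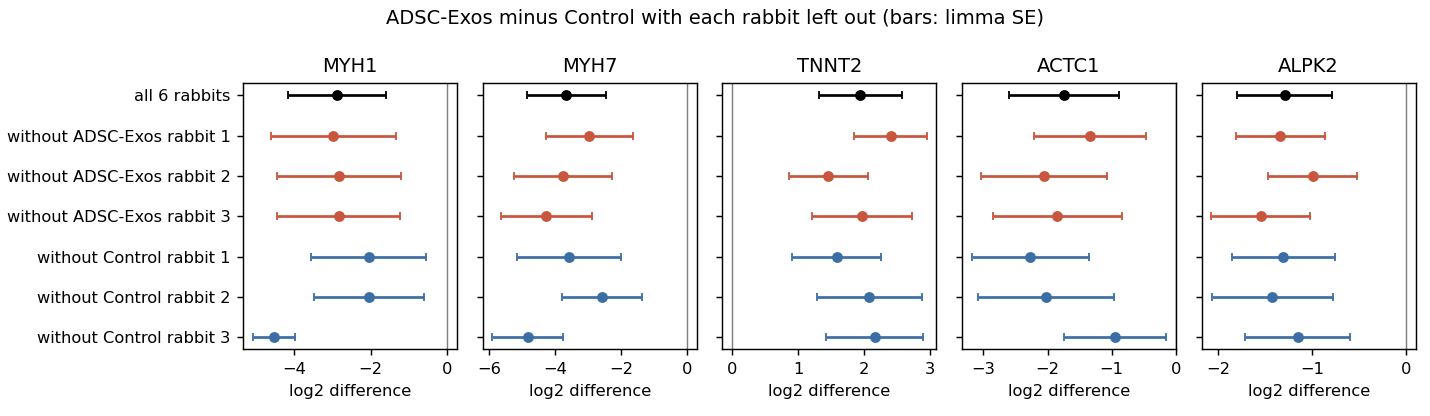
Log2 difference (ADSC-Exos minus control, horizontal axis) of each muscle gene with all 6 rabbits in black and with each rabbit left out in turn, in red for ADSC-Exos and blue for control rabbits; bars are limma standard errors. All differences keep their side of 0, and leaving out control rabbit 3 gives -4.52 for MYH1 and -0.94 for ACTC1.

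Other striated muscle genes of the table fell into 2 patterns. Of 145 genes on 6 lists of striated muscle genes, 13 were among the listed mRNAs, the 5 genes above and 8 more. Of these 13 transcripts, 7 had lower and 6 had higher means in ADSC-Exos scars, against 42.5% lower and 57.5% higher over all listed mRNAs. The authors' deposited table called 2 of the 13 lower, MYH1 and MYH7, and 2 higher, TNNT2 and PDK4, against 6.41% and 5.23% of the listed mRNAs. All of these but PDK4 are among the 5 genes chosen by symbol. Defining muscle genes such as ACTA1, CKM, DES, TTN and MYOG were not among the listed transcripts and were not analysed here. None of 12 smooth muscle and myofibroblast genes, among them ACTA2, was listed either.

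The first pattern was that of the myosins. XIRP2, an actin-binding protein of muscle attachment sites, had 0, 0 and 2 reads in ADSC-Exos rabbits 1 to 3, against 19, 51 and 0 reads in control rabbits 1 to 3. NRAP, which anchors actin filaments during myofibril assembly, had 5, 0 and 0 reads in ADSC-Exos rabbits, against 16, 29 and 2 reads in control rabbits. MYL2 had no reads in any ADSC-Exos rabbit, against 7, 18 and 0 reads in control rabbits. Its mean was at least 2.63-fold lower in ADSC-Exos scars, taking 3 reads in each ADSC-Exos rabbit as the most that a count of 0 allows, a limit that covers counting error only. In all of them control rabbits 1 and 2 carried the reads, and control rabbit 3 was within the range of the treated rabbits. With MYH1 and MYH7 that makes 5 of the 7 muscle transcripts with a lower mean in which control rabbits 1 and 2 were above all other rabbits. The same held for 44 of the 179 listed mRNAs with a lower mean, or 24.6%. The 2 shares are not a test, because the pattern was read from MYH1 and MYH7, which are counted in it. With so few reads in the other rabbits, XIRP2, NRAP and MYL2 could enter the list only through control rabbits 1 and 2. Neither XIRP2, NRAP nor MYL2 was called in the authors' deposited table (FDR 0.340, 0.587 and 0.474).

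The second pattern was that of TNNT2, with the highest values in ADSC-Exos rabbits 2 and 3. ANKRD1, a stretch-responsive protein that binds titin and also acts in the nucleus, had 5, 18 and 17 reads in ADSC-Exos rabbits 1 to 3, against 2, 0 and 3 reads in control rabbits 1 to 3. XIRP1, a relative of XIRP2, had 26, 61 and 38 reads in ADSC-Exos rabbits, against 23, 12 and 4 reads in control rabbits. For both genes all ADSC-Exos rabbits were above all control rabbits. AMPD1, the AMP deaminase of skeletal muscle, had 0, 23 and 4 reads in ADSC-Exos rabbits and none in control rabbits. Its arms overlapped, with p = 0.4 in the exact permutation test and an FDR of 0.456 in the authors' deposited table. Allowing 3 reads in each control rabbit put a lower bound of 3.07-fold on the rise. That bound covers counting error in the controls only. It leaves out the spread of the ADSC-Exos arm, where most reads came from rabbit 2. PDK4, a kinase that shuts down pyruvate dehydrogenase when muscle burns fat, had 1585, 7449 and 4615 reads in ADSC-Exos rabbits, against 1011, 1471 and 1275 reads in control rabbits. PDK4 was the only one of these called in the authors' deposited table (FDR 0.0286).

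In all 6 muscle transcripts with a higher mean, ADSC-Exos rabbit 1 was the lowest of its arm. That was also so for 83.9% of the 242 listed mRNAs with a higher mean. SLN, sarcolipin, an inhibitor of the calcium pump of the sarcoplasmic reticulum, had the least spread among them and was named after its values were seen. It had 36, 43 and 46 reads in ADSC-Exos rabbits 1 to 3, against 25, 11 and 13 reads in control rabbits 1 to 3, and an FDR of 0.0604 in the authors' deposited table.

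**Figure D4:**
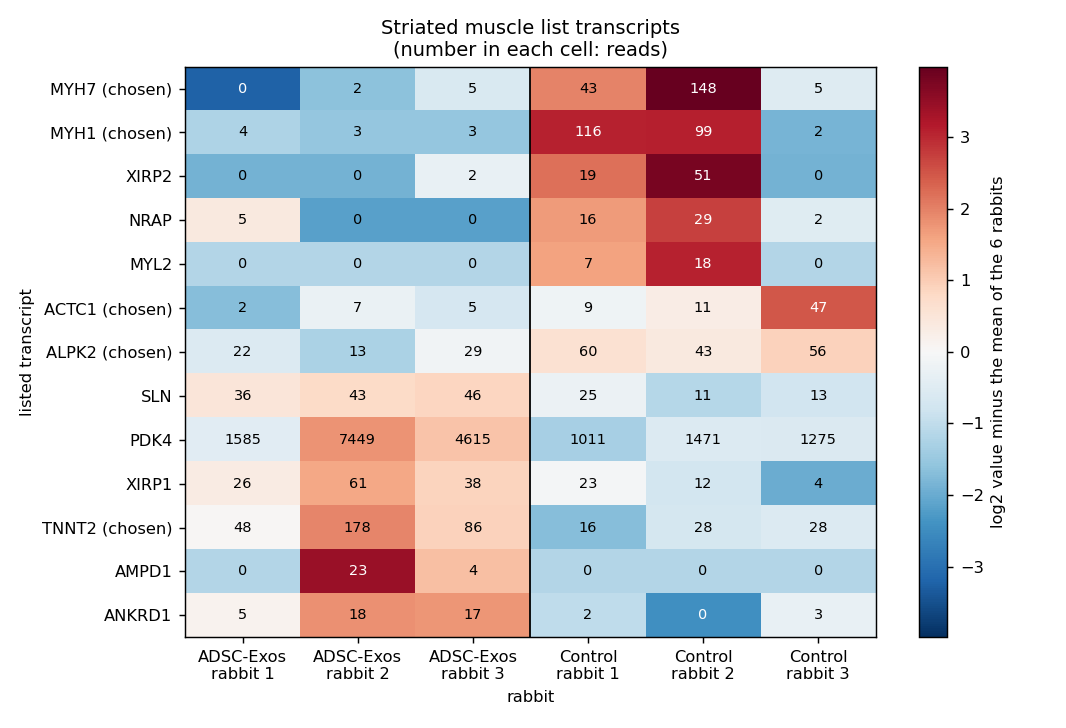
Log2 values of the 13 listed transcripts on the striated muscle lists, each minus its mean over the 6 rabbits (colour), with the number of reads written in each cell; rows are ordered by the difference between the arms, the 5 genes chosen by symbol are marked, and the line separates ADSC-Exos rabbits at the left from control rabbits at the right. MYH7, MYH1, XIRP2, NRAP and MYL2 are highest in control rabbits 1 and 2, ACTC1 in control rabbit 3, and the 6 transcripts at the bottom in ADSC-Exos rabbits 2 and 3.

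A search of the deposited annotation for sarcomere, myofibril, myosin or muscle contraction found 13 transcripts, 7 with higher and 6 with lower means in ADSC-Exos scars. The 5 of them on none of the lists, AVPR1A, MYBPHL, LRRC10, PLA2G4D and COX4I2, all had higher means; the last 3 were named after their values were seen. AVPR1A, the vasopressin receptor of smooth muscle, had 224, 1812 and 2028 reads in ADSC-Exos rabbits 1 to 3, against 236, 228 and 167 reads in control rabbits 1 to 3. MYBPHL, a relative of the myosin-binding proteins that is made in the heart's atria, had 13, 41 and 49 reads in ADSC-Exos rabbits, against 9, 13 and 4 reads in control rabbits. In both genes ADSC-Exos rabbits 2 and 3 were high and rabbit 1 lay within the control range. Of the 9 listed mRNAs with a myofibril term, 6 had lower and 3 had higher means in ADSC-Exos scars, against 42.5% lower over all listed mRNAs. These 9 include 4 of the 5 genes chosen by symbol, so the count is not separate from them. Beyond the 5 genes, lists and annotation together gave 13 transcripts, 10 higher and 3 lower, with arms that did not overlap for 5 of them, or 38.5%, against 53.7% of the listed mRNAs. Of these 13, 1 transcript, PDK4, was called in the authors' deposited table, or 7.69%, against 11.6% of the listed mRNAs.

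The transcripts whose profiles lay nearest to each gene were found by the root mean square distance over the 6 rabbits, after each transcript was centred on its own mean. For MYH1 the nearest were PLEKHG7, at 0.31, and SESTD1, at 0.32, where the median listed mRNA lay at 2.67. This PLEKHG7 transcript had no reads in ADSC-Exos rabbits, against 18, 17 and 0 reads in control rabbits 1 to 3. Another listed PLEKHG7 transcript went the other way, with a difference of 2.51 and an FDR of 0.0596 in the authors' deposited table. SESTD1 had 43, 56 and 55 reads in ADSC-Exos rabbits, against 1131, 1301 and 46 reads in control rabbits. Neither gene is on a muscle list, and both of the nearest transcripts show the same step between control rabbits 1 and 2 and the other 4 rabbits.

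For MYH7 the nearest were XIRP2, at 0.81, and SESTD1, at 0.91. TNNT2 lay nearest to PDK4, at 0.28, and to CACNG4, a calcium channel subunit, at 0.32. LAMP3, a lysosomal membrane protein, at 0.45 and NT5C1A, an AMP-hydrolysing nucleotidase of muscle, at 0.54 were nearest to ACTC1. ALPK2 was nearest to PACSIN1, at 0.22, and IGDCC4, at 0.32. Among the 5 genes themselves the smallest distance was that of ACTC1 and ALPK2, at 0.96, and MYH1 and MYH7 lay 1.20 apart. The distance is not scaled for how widely a gene varies, so these 2 values do not rank the pairs by likeness. The median listed mRNA lay at 1.73 from ACTC1 and 1.48 from ALPK2, against 2.67 from MYH1 and 2.76 from MYH7.

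Genes of other cell types were in part highest in the same rabbits, as were many listed mRNAs. All 5 listed erythrocyte transcripts, of 4 of the 14 genes on that list, had lower means, and their summed level was 3668 to 6955 normalized reads in ADSC-Exos rabbits, against 9746 to 37492 in control rabbits. The highest sum was in control rabbit 3, which was also the highest rabbit for ACTC1. That rabbit was the highest of its arm for 55.3% of the 179 listed mRNAs with a lower mean, so the match is not particular to these genes. For 3 of the 17 cartilage genes the sum was 2907 to 5979 in ADSC-Exos rabbits and 8541 to 23278 in control rabbits. Of these cartilage transcripts, 2 had lower means and 1 had a higher mean. The 3 listed macrophage and osteoclast genes of 14 summed to 204 to 1767 in ADSC-Exos rabbits, highest in rabbit 2 as for TNNT2, and to 101 to 210 in control rabbits. For 3 of 19 keratinocyte and sebaceous genes the sum was 1493 to 6325 in ADSC-Exos rabbits and 1343 to 3513 in control rabbits. That sum does not stand for its members, as 3 of its 4 transcripts had lower means and 1 had a higher mean. For 2 of 11 Schwann cell genes, both with lower means, the sum was 496 to 1587 in ADSC-Exos rabbits and 1567 to 2397 in control rabbits. No adipocyte or endothelial gene of those lists was listed. None of these sums was highest in control rabbits 1 and 2 together, as the myosins were. The part of these cell types in the muscle results was not tested.

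The noncoding tables added little on these genes. None of the 1694 listed circular RNAs came from the 5 genes, and 1 came from another muscle gene. It is an exonic circle of PDLIM5, a Z-disc scaffold protein, on chromosome 15 from 55310127 to 55343913, in a genome build that the sources used here do not name. It had 1, 2 and 0 reads in ADSC-Exos rabbits 1 to 3 and none in control rabbits, too few to show a difference (limma adjusted p = 0.117 over the table, where 2 circular RNAs, or 0.118%, passed). Of the 133 listed lncRNAs, 69 have a protein-coding transcript within 3 kb in the authors' table, and in 0 cases was it one of the 13 muscle list transcripts.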

How the data were processed

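RNA was sequenced from 6 scars' libraries, 1 per rabbit. Per the submitters' processing notes, the authors used STAR 2.7.6a, HTSeq 2.0.3, DESeq2 1.30.1, Trimmomatic 0.40 and FastQC 1.0.0, with no roles stated and no genome build named. The deposited values are on a log2 scale. Undone to a linear scale, less the pseudocount of 1, they are whole multiples of a unit in each library (within 0.01 for 100% of values), which are the reads printed. The size factors that these units give are 0.890 to 1.18 for the mRNAs and lncRNAs. For the circular RNAs they are 0.454 in ADSC-Exos rabbit 1 and 0.510 in every other rabbit. The deposited p-values and FDR come from the authors' comparison, whose test is not named. Ratios of FDR to p fit 17743 transcripts for 53.4% of the listed mRNAs and lncRNAs. No per-sample column was left unmapped.

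The whole table was fitted by limma (version 3.58.1, R 4.3.3) with its robust and trend options, counting each unlisted transcript as not significant in the adjustment. The script was checked on simulated data, with adjustment over the listed transcripts alone. That check does not gauge the power of the fit reported here. No count test was run on the recovered reads. The genes and gene lists were chosen with earlier results of these data known. Named genes are the 5 genes, the 8 other muscle transcripts with the largest differences, and the 2 nearest profiles of each gene; the mRNA table gives no coordinates, so lncRNA neighbours come from the authors' 3 kb column in place of the planned distance. Biological process terms of 115 transcripts were not used. Sequences are not shown, as no file used here holds them. Deviations from the arm means correlated at -0.025 to 0.014 between rabbits of the same number. These values show no pairing by replicate number but cannot exclude one, and no pairing is stated.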

Additional observations from a re-analysis of the deposited data

How the results depend on the processing

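Under 14 alternatives for each of the 5 genes, 70 comparisons in all, every log2 difference kept its direction and none passed an adjusted p of 0.05. Leaving out 1 rabbit gave -4.52 to -2.05 for MYH1, -4.82 to -2.57 for MYH7, 1.46 to 2.41 for TNNT2, -2.27 to -0.94 for ACTC1 and -1.55 to -0.99 for ALPK2; the extremes of MYH1 and ACTC1 that lie over 1.5 times from the full value are those without control rabbit 3. The other settings (no size factor, quantile normalization, a pseudocount of 0.1 or 5, a filter at a mean of 10 normalized reads, plain limma, the replicate number as a block, adjustment over the listed transcripts) gave -3.11 to -2.35, -4.92 to -2.52, 1.75 to 1.99, -2.07 to -1.26 and -1.60 to -1.14 in the same order. Limma's 0 calls became 3 when adjusted over the listed transcripts alone, none of them among the 5 genes (lowest adjusted p 0.0917), 193 at an unadjusted p under 0.05, and between 0 and 2 when a rabbit was left out (2 on leaving out ADSC-Exos rabbit 1). The replicate number as a block gave 0 calls. The 193 became 127 with the filter, which leaves 364 transcripts, and 94 to 311 without 1 rabbit: 311, 101 and 97 without ADSC-Exos rabbits 1, 2 and 3, and 94 and 117 without control rabbits 2 and 3. Of the 5 genes, 3 were below that p in the full fit and 0 to 3 without 1 rabbit, and 3 or 4 under the other settings. These counts were chosen after seeing the data; the cause was not tested. With no size factor the arms of MYH7 tie, and 3 of the 5 genes have arms that do not overlap. The PDLIM5 circle gave 0.84 to 1.99 without 1 rabbit and passed (adjusted p = 0.0249) without ADSC-Exos rabbit 3, on 3 reads. Low reads limit MYH1, MYH7 and ACTC1, for which no ADSC-Exos rabbit had more than 7.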
